A study of Mus musculus with 10 samples.

Results

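Lymphoid priming genes are a set of 9 genes whose RNA appears in early blood progenitors before commitment to the B or T lineage: Flt3, Il7r, Dntt, Rag1, Rag2, Ccr9, Notch1, Satb1 and Ly6d. They were taken as the probes whose RefSeq accession belongs to one of these genes, which gave 13 of the 55681 probes on the array and 9 of the 20972 genes it names. RNA was measured on 10 one-colour Agilent arrays from LSK cells, a gate on marrow (no lineage markers, Sca-1 and c-Kit present) in which blood stem cells and the earliest progenitors are found. All cells were sorted for CD45.2 after transplantation, all mice were C57BL/6, and tamoxifen was given in both genotypes. The wild type (WT) carried Cre-Ert alone and the knockout (KO) carried Cre-Ert;Ezh2fl/fl, in which tamoxifen deletes Ezh2. Ezh2 is the enzyme of Polycomb repressive complex 2 that methylates lysine 27 of histone H3.

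The arrays labelled 3 months after transplantation were 1 WT and 1 KO, with no disease in either label. Those labelled 9-12 months were 1 WT array without disease and 7 KO arrays. By disease label, 2 of the 7 were MDS (myelodysplastic syndrome, failure of blood cell maturation), 3 were MDS/MPN (the same with myeloproliferative overgrowth), 1 was not determined and 1 listed several diseases as mixed. MDS/MPN replicate 1 also carries the letters TC in its disease label, and replicate 3 carries CMMoL in its source label. The sources used here do not say what TC means, which promoter drives Cre-Ert, if any array other than those of single diseased mice pools animals, or if the mixed sample shares mice with other arrays. The series text states 3 animals at 3 months, against 1 array per genotype here. The p-values below measure only the spread between these arrays.

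Lymphoid potential is switched on stepwise inside the LSK gate. Progenitors that raise the cytokine receptor Flt3 lose long-term self-renewal and begin to transcribe genes of antigen receptor rearrangement, such as Dntt and the Rag genes. Receptors for interleukin 7, chemokines and Notch ligands then guide them towards the B lineage in marrow or the T lineage in thymus, and Ly6d marks the common lymphoid progenitors that are set on the B lineage.

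Promoter sequences show how unlike the members are in CpG content. They are given for the 3 members whose levels followed each other most closely, among those well above background on every array. Each is the 250 bases before the annotated start (RefSeq, GRCm38.p6), read 5′ to 3′ on the strand of the gene, with every CG dinucleotide in capitals. The windows are chr5:147400490-147400739, minus strand, for Flt3, chr17:51832648-51832897, minus strand, for the most CpG-rich of the 5 annotated Satb1 starts, and chr19:41029025-41029274, plus strand, for Dntt.
Flt3: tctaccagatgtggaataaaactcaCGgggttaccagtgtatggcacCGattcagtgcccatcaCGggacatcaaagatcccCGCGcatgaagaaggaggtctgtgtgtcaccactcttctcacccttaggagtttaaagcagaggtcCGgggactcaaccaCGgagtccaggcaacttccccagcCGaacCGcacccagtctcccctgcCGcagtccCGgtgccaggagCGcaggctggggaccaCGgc
Satb1: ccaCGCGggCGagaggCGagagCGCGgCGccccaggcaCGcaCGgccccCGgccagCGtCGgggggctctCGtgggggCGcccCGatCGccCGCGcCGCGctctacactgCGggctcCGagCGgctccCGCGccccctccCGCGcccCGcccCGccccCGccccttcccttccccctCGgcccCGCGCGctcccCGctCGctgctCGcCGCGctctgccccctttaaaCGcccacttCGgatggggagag
Dntt: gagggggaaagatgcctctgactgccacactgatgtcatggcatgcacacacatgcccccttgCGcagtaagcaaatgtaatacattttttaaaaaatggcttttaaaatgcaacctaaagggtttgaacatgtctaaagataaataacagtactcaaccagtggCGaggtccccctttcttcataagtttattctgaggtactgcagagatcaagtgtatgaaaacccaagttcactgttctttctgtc
The Flt3 window held 13 CG, the Satb1 window 41 and the Dntt window 2, against a median of 6 over the 32851 annotated windows of this length. The other Satb1 windows held 6, 12, 3 and 5, those of Notch1 16, Rag1 3, Rag2 3, Ccr9 3 and Il7r 1. At least 1 CG was present in 92.1% of all windows. The letters GGGAA, the core of the site bound by Ikaros, were found on either strand in the Flt3 and Dntt windows once each and in the Satb1 window on 2 occasions, and 56.2% of all windows held them. The E-box letters CANNTG occurred once for Flt3, 3 times for Dntt and not in the Satb1 window shown, and 66.2% of all windows held them. In all, 8 of the 9 members had a promoter entry, with 12 windows between them.

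The members' values are log2 of the processed spot intensity minus log2 of the 75th percentile of the same array, so that 0 is the 75th percentile and 1 unit is 2-fold. Across arrays that percentile ran from 78.7 to 302 intensity units, with MDS/MPN replicate 2 at 302 and the next array at 145, and 32.5% to 47.5% of probes were well above background by the scanner software's call. The arrays lay on 2 slides, the 3-month WT and KO arrays on slide 1 and the other 8 on slide 2, so slide and time cannot be told apart. On slide 2 the MDS arrays lay on line 1 and the MDS/MPN arrays on line 2, so line and disease cannot be told apart either. Kit and Ly6a, the genes of the gate proteins c-Kit and Sca-1, and Cd34 and Ptprc, listed with them, were well above background on every array. Summed in multiples of the 75th percentile, the 4 stood at 295 and 436 on the WT arrays and 193 to 434 on the KO arrays. With MDS the sums were 338 and 353, and with MDS/MPN 193 to 243. These sums rest mainly on Cd34, the brightest of the 4 on every array, at 7.15 to 8.60. Kit stood at 5.23 and 5.12 with MDS and 3.86 to 4.11 with MDS/MPN. Ly6a stood at 4.57 and 4.25 with MDS and 4.56 to 5.20 with MDS/MPN. The single Ezh2 probe stood between 2.13 and 2.63 on the WT arrays and between 2.13 and 3.35 on the KO arrays, and no source used here says whether it lies in the deleted part, so it does not check the genotype labels. The time labels of 4 arrays are exchanged between the scanner files and the deposited value table (the WT arrays of both times, and the 3-month KO and mixed arrays), with the genotype the same in both. Times here are those of the scanner files. In bulk RNA, fewer cells of a type and less RNA per cell cannot be told apart.

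Of the 9 members, 8 could be tested, and 0 of the 8 passed an adjusted p of 0.05 in any of the comparisons below (limma, Benjamini-Hochberg). The share of all features that passed was 0.0134% for KO versus WT over all 10 arrays, 0.587% for that comparison at 9-12 months, 0% between the disease labels and 0% for the difference between times. The values are therefore described by size and by overlap between arrays. Ly6d was above the WT array of its own slide on all 8 KO arrays. Ccr9 was well above background on 6 of 8 KO arrays and on neither WT array. Flt3, Dntt and Satb1 were lower on MDS/MPN replicates 1 and 3 and on the undetermined array than on the MDS arrays, while MDS/MPN replicate 2 stood nearer to the MDS arrays. MDS/MPN replicates 1 and 3 and the undetermined array also had the lowest 75th percentiles of slide 2, at 89.4, 96.9 and 92.4 intensity units. The other slide 2 arrays ran from 120 to 302, and the slide 1 WT and KO arrays stood at 94.5 and 78.7. The part of array brightness in the levels of these genes was not tested. Il7r and Rag1 had their highest values on MDS/MPN replicate 2, the only array on which all 9 members were well above background. The number of members well above background was 6 on each WT array and ran from 4 on MDS/MPN replicate 1 to 9 on MDS/MPN replicate 2 among the KO arrays. These 2 arrays also had the lowest and the highest share of all probes well above background, 32.5% and 47.5%, and the part of that difference in the members' counts was not tested.

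**Figure D1:**
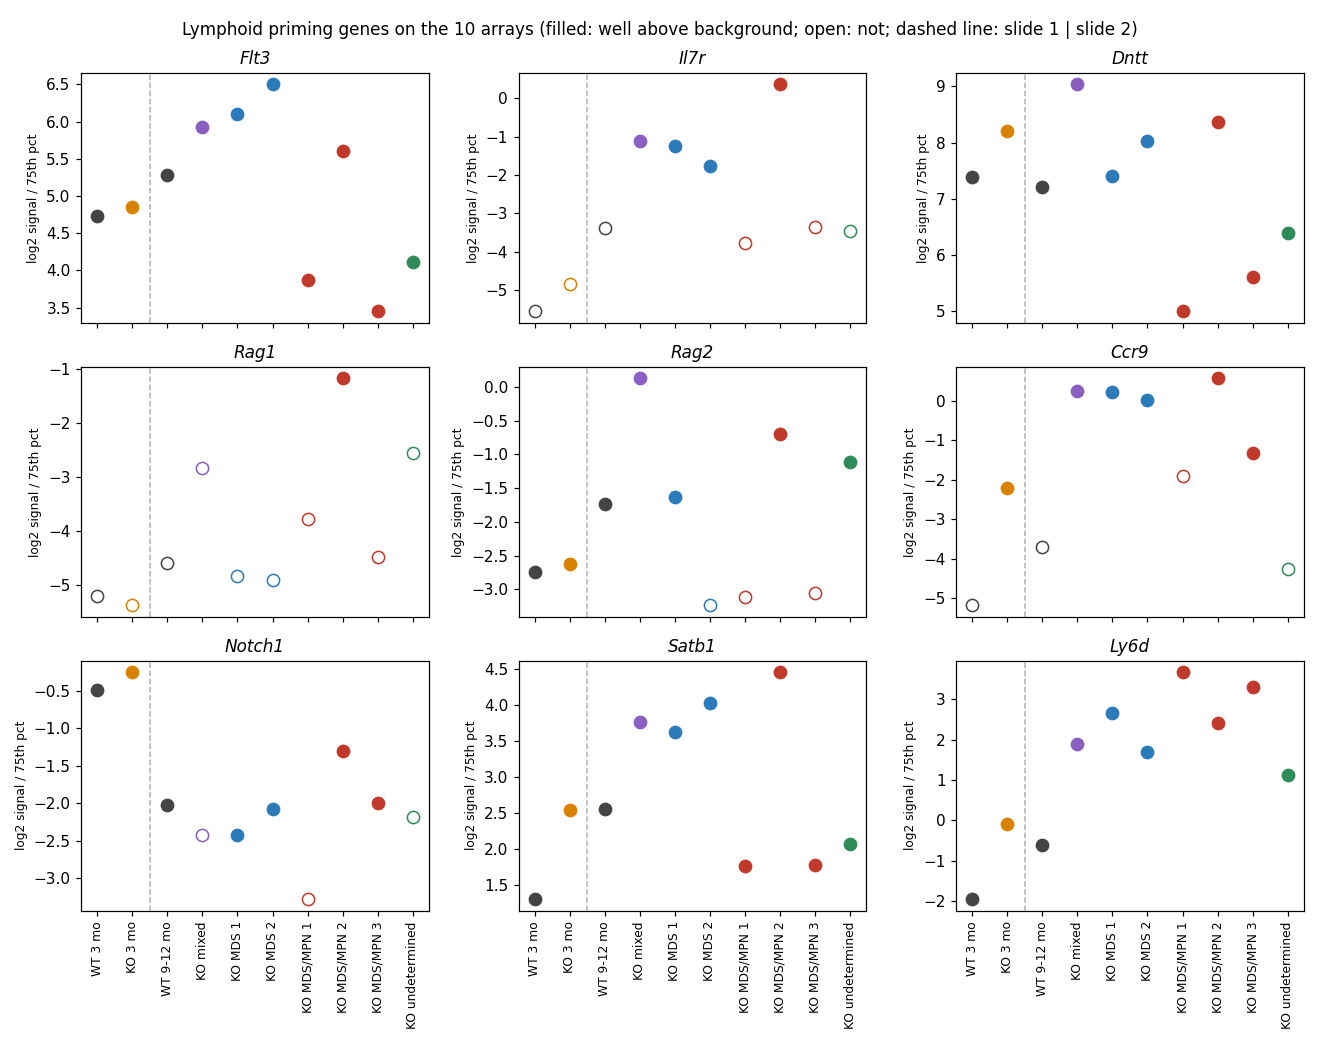
Level of each lymphoid priming gene (log2 intensity over the array's 75th percentile, y axis, own scale per gene) on each of the 10 arrays (x axis); filled points were well above background, open points were not, and the dashed line divides slide 1 from slide 2. Ly6d is lower on the WT array than on the KO arrays within each slide, and Flt3, Dntt and Satb1 are low on MDS/MPN replicates 1 and 3 and on the undetermined array.

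Flt3, the receptor tyrosine kinase for Flt3 ligand that marks multipotent progenitors with lymphoid potential, lies on chromosome 5 (147330741 to 147400489 in GRCm38.p6, protein-coding; probe positions within transcripts are not used here). On slide 1 it stood at 4.73 in WT and 4.85 in KO. On slide 2 it stood at 5.28 in WT, 5.93 on the mixed array, 6.10 and 6.50 on the MDS arrays, 3.88, 5.61 and 3.45 on MDS/MPN replicates 1, 2 and 3, and 4.12 on the undetermined array. WT values thus lay inside the KO range, whereas the MDS/MPN arrays were all below the MDS arrays, without overlap, as 12% of all features were. Over all arrays the KO minus WT difference was -0.083 ± 0.83 (SE, limma, 8 KO and 2 WT arrays, slide as block, adjusted p = 0.9997, Benjamini-Hochberg as throughout), with a 95% interval of -1.92 to 1.75. MDS/MPN minus MDS was -1.99 ± 0.69 (SE, limma, 3 and 2 arrays, unadjusted p = 0.0297, adjusted p = 0.991), with an interval of -3.71 to -0.28. Without MDS/MPN replicate 2 it was -2.64 (limma adjusted p = 0.117), and leaving out each MDS or MDS/MPN array in turn gave -2.64 to -1.56. Over all alternatives its adjusted p ran from 0.117 to 0.999995. The other Flt3 probe, also well above background on all 10 arrays, gave -1.97 for the same difference.

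Il7r, the interleukin 7 receptor alpha chain needed for lymphocyte survival and expansion (chromosome 15, 9506159 to 9529941), was well above background on 4 arrays, all KO. These were MDS/MPN replicate 2 at 0.36, the mixed array at -1.12 and the MDS arrays at -1.24 and -1.77. The 6 arrays not well above background read from -5.55 on the 3-month WT array to -3.35 on MDS/MPN replicate 3, and their order has no meaning below background. Il7r entered the test through the KO arrays alone, so no measured difference of KO from WT is given. With the WT arrays raised to their lowest signal well above background, the KO mean was 1.35-fold higher. Only 4 of 8 KO arrays were measured, and the mean includes the other readings, so 1.35-fold is not a strict lower bound. The fit to the readings as they stand had a limma adjusted p of 0.967. Both MDS arrays and 1 of 3 MDS/MPN arrays were well above background, and MDS/MPN minus MDS was -0.75 ± 1.27 (SE, limma, adjusted p = 0.9996). That difference was -2.06 without MDS/MPN replicate 2 and 0.015 without replicate 1. Without replicate 2 no MDS/MPN array was well above background, so -2.06 is not a measured difference.

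Satb1, a chromatin organiser of lymphoid gene programmes (chromosome 17, 51736187 to 51833290), was well above background on all 10 arrays. It stood at 1.31 in WT and 2.54 in KO on slide 1. On slide 2 it stood at 2.56 in WT, 3.77 on the mixed array, 3.62 and 4.03 on the MDS arrays, 1.77, 4.46 and 1.78 on MDS/MPN replicates 1, 2 and 3, and 2.08 on the undetermined array. On 5 of the 8 KO arrays it was at least 2-fold above the WT array of the slide, and on the other 3 it was below. The fitted KO minus WT difference was 0.78 ± 0.79 (SE, limma, 8 and 2 arrays, adjusted p = 0.967). MDS/MPN minus MDS was -1.16 ± 0.89 (SE, limma, adjusted p = 0.991), and -2.05 without MDS/MPN replicate 2 (limma adjusted p = 0.117, 0.117 to 0.999995 over the alternatives). Leaving out each MDS or MDS/MPN array in turn gave -2.05 to -0.71.

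Dntt encodes terminal deoxynucleotidyl transferase, which adds untemplated bases at antigen receptor joints (chromosome 19, 41029275 to 41059525). It was well above background on all 10 arrays. On slide 1 it stood at 7.39 in WT and 8.20 in KO. On slide 2 it stood at 7.21 in WT, 9.04 on the mixed array, 7.42 and 8.03 on the MDS arrays, 5.002, 8.37 and 5.61 on MDS/MPN replicates 1, 2 and 3, and 6.40 on the undetermined array. The lowest and the highest value both came from KO arrays and both WT values lay between them. KO minus WT was 0.24 ± 1.001 (SE, limma, 8 and 2 arrays, adjusted p = 0.997), a difference that read -0.029 after quantile normalisation. MDS/MPN minus MDS was -1.40 ± 1.02 (SE, limma, adjusted p = 0.991), and -2.42 without MDS/MPN replicate 2 (limma adjusted p = 0.117, 0.117 to 0.999995 over the alternatives). Leaving out each MDS or MDS/MPN array in turn gave -2.42 to -0.73.

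Rag1 and Rag2, the pair of recombinase subunits that cut DNA at antigen receptor segments, are neighbours on chromosome 2 (101638252 to 101649532 and 101624712 to 101632528). Rag1 was well above background on 1 array, MDS/MPN replicate 2, at -1.18, and its second probe on none, so it entered no test. Rag2 was well above background on 7 arrays: at -2.74 in WT and -2.62 in KO on slide 1, and on slide 2 at -1.73 in WT, 0.13 on the mixed array, -1.62 on MDS replicate 1, -0.70 on MDS/MPN replicate 2 and -1.11 on the undetermined array. Its second probe was well above background on none of the 10 arrays, so the values of the gene rest on 1 probe. KO and WT overlapped, and the fitted difference was -0.013 ± 0.90 (SE, limma, 8 and 2 arrays, adjusted p = 0.9997), with a 95% interval of -1.997 to 1.97.

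Ccr9, the chemokine receptor that leads progenitors to the thymus (chromosome 9, 123767211 to 123783457), was not well above background on either WT array, where it read -5.17 on slide 1 and -3.70 on slide 2. It was well above background at -2.20 on the 3-month KO array, 0.26 on the mixed array, 0.22 and 0.03 on the MDS arrays, and 0.57 and -1.31 on MDS/MPN replicates 2 and 3. MDS/MPN replicate 1 at -1.89 and the undetermined array at -4.25 were not well above background. Ccr9 entered the test through the KO arrays alone, so its KO to WT difference is not a measured one. With the WT arrays raised as for Il7r, the KO mean was 3.37-fold higher over all arrays, with 6 of 8 KO arrays measured. At 9-12 months alone the same figure for the 6 single mice was 2.37-fold, with 4 of 6 measured. Both means include KO readings not well above background, so neither figure is a strict lower bound. The adjusted p of the fit over all arrays was 0.810 (limma, 0.528 to 0.99999 over the alternatives, the lowest without the undetermined array).

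Notch1, a receptor whose cleavage on ligand binding starts the T lineage programme (chromosome 2, 26457902 to 26503822), was well above background on 7 arrays. On slide 1 it stood at -0.48 in WT and -0.25 in KO. On slide 2 it stood at -2.03 in WT, -2.43 and -2.08 on the MDS arrays, and -1.31 and -1.99 on MDS/MPN replicates 2 and 3. The mixed array at -2.42, MDS/MPN replicate 1 at -3.28 and the undetermined array at -2.19 were not well above background. Both slide 1 arrays were above all 8 slide 2 arrays, and the differences of the KO arrays from the WT array of their slide ran from -1.26 to 0.72. KO minus WT was -0.053 ± 0.46 (SE, limma, 8 and 2 arrays, adjusted p = 0.9997), with a 95% interval of -1.07 to 0.96. The other Notch1 probe was well above background only on MDS/MPN replicate 2 and gives no second reading of these values.

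Ly6d, a GPI-anchored surface protein of the Ly6 family (chromosome 15, 74762056 to 74763567), was well above background on all 10 arrays. On slide 1 it stood at -1.95 in WT and -0.08 in KO. On slide 2 it stood at -0.61 in WT, 1.90 on the mixed array, 2.68 and 1.69 on the MDS arrays, 3.67, 2.42 and 3.30 on MDS/MPN replicates 1, 2 and 3, and 1.12 on the undetermined array. The KO arrays were all above the WT arrays, without overlap, as 3.18% of all features were. Each KO array was above the WT array of its slide by 1.73 to 4.28 log2 units, and 0.192% of the 22371 features tested were at least 2-fold above WT in this way on all 8 KO arrays. The fitted difference was 2.59 ± 0.65 (SE, limma, 8 and 2 arrays, slide as block, higher in 8 of 8, unadjusted p = 0.00236, adjusted p = 0.534). Its 95% interval was 1.15 to 4.04, its unadjusted p ranked 98 among 22371 features, and its adjusted p lay between 0.270 and 0.99999 over the alternatives. With normexp background correction, which adds an offset of 50 to each signal, it was 1.66. Without the mixed array the difference was 2.64, and leaving out any 1 array gave 1.87 to 3.00.

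**Figure D2:**
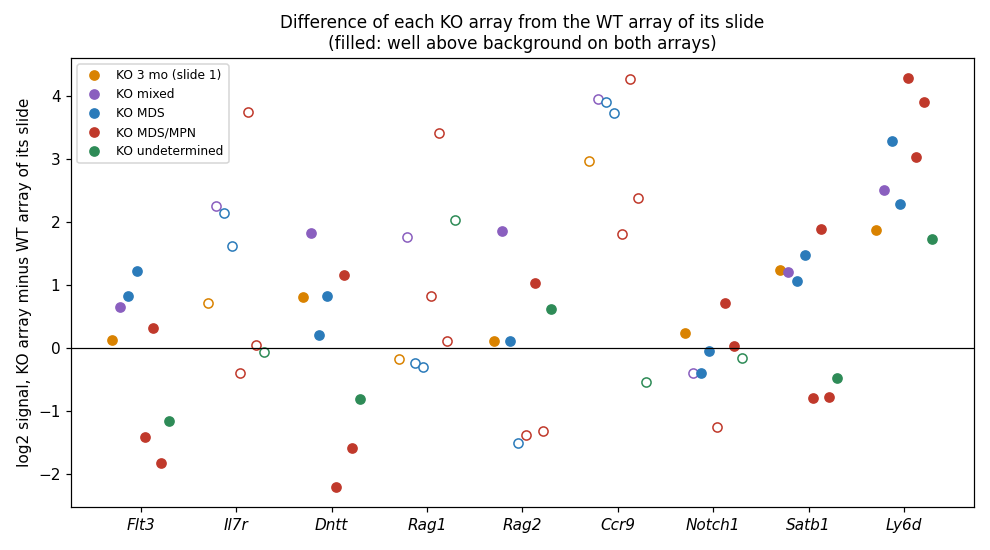
Difference of each KO array from the WT array on the same slide (y axis, log2 units) for the 9 genes (x axis); colours are the disease labels, filled points were well above background on both arrays and the line marks 0. All 8 Ly6d points lie between 1.73 and 4.28, all Ccr9 points are open because neither WT array was well above background, and the MDS/MPN points of Flt3, Dntt and Satb1 fall on both sides of 0.

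For the question of what Ezh2 deletion changed in either disease or time setting, 8 of the 9 members could be tested over all 10 arrays and 0 passed (limma, adjusted p under 0.05, background 0.0134% of features called). At an unadjusted p under 0.05, 2 of 8 passed, Ly6d and Ccr9, against 5.55% of all features. Ccr9 is in that count only against WT readings below background, and after quantile normalisation or normexp background correction 1 of 8, Ly6d, was left. It was also 1 of 8 without either slide 1 array, and 0 of 8 without the 9-12-month WT array. Of the 8, 5 read higher and 3 lower in KO, with a median of 0.51 against 0.04 over all features. It was 0.33 with the WT arrays raised for Il7r and Ccr9. The split was also 5 and 3 after quantile normalisation, where Dntt and Rag2 trade sides and the median was 0.36, and it was 6 and 2 with normexp, where the median was 0.20. Ly6d was the 1 member whose KO and WT arrays did not overlap, as 3.18% of all features did not in the higher direction.

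Restricting the comparison to slide 2, the 6 KO arrays of single mice were set against the 1 WT array labelled 9-12 months, whose spread was taken to equal that of the KO group. Again 0 of 8 members passed (limma, background 0.587%), and 1 of 8, Ly6d, had an unadjusted p under 0.05, against 4.67% of features. With the time labels of the deposited value table, which put the other WT array in this comparison, 4 of 8 members had an unadjusted p under 0.05 and 0 passed. These were Ly6d at 4.43 (limma adjusted p = 0.0702), Notch1 at -1.73 (limma adjusted p = 0.259), and Ccr9 and Il7r (limma adjusted p = 0.260 and 0.296), which were not well above background on that WT array. That WT array lies on slide 1 and the KO arrays on slide 2. Ly6d was 3.09 ± 0.86 higher (SE, limma, unadjusted p = 0.00635, adjusted p = 0.312, higher in 6 of 6 mice, adjusted p from 0.0702 to 0.99998 over the alternatives). That p carries no spread between WT arrays of its own. Its arrays did not overlap, as for 9.28% of features in the higher direction. The differences of Flt3 at -0.34, Dntt at -0.40, Rag2 at -0.41 and Satb1 at 0.40 were each below the spread between the 6 KO arrays. The SD of the 6 arrays was 1.29 for Flt3, 1.35 for Dntt, 1.22 for Satb1, 0.96 for Ly6d and 0.64 for Notch1, against a median of 0.54 over features. Of all features, 95.1%, 95.9%, 94.0%, 87.3% and 63.4% had a smaller SD than these 5 genes, in that order. The SDs of Rag2, Il7r and Ccr9, at 1.13, 1.62 and 1.81, include readings not well above background.

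With 1 array against 1, the early and the mixed pairs have values and no test. The 3-month KO array was at least 2-fold above its WT array for 3 of 7 members measured, against 12.9% of all features: Ccr9, at least 2.15-fold, Ly6d at 1.87 and Satb1 at 1.24 log2 units. Dntt read 0.81, Notch1 0.23, Flt3 0.12 and Rag2 0.11. The mixed array was at least 2-fold above the 9-12-month WT array for 6 of 8 members, against 4.51% of features. These were Ccr9, at least 6.07-fold, Il7r, at least 2.33-fold, Ly6d at 2.51, Rag2 at 1.86, Dntt at 1.83 and Satb1 at 1.21, while Flt3 read 0.64. Notch1, not well above background on the mixed array, was at least 1.30-fold lower there. With the time labels of the value table these 2 pairs trade places. The difference between the KO effects at 9-12 and at 3 months had an adjusted p of 0.9998 for each of 8 members (limma, background 0%, with 5.02% of features and 0 members at an unadjusted p under 0.05). For Ly6d that difference was 1.21 ± 1.43 (SE, limma), with a 95% interval of -2.04 to 4.46, which does not show that the effects are alike.

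The 2 WT arrays, on different slides and labelled with different times, were themselves at least 2-fold apart for 4 of 6 members measured. At 9-12 months Ly6d was 1.34, Satb1 1.25 and Rag2 1.01 log2 units above the 3-month array, and Notch1 1.54 below it. In that direction 9.91% of features were at least 2-fold higher and 14.1% at least 2-fold lower. Flt3 at 0.55 and Dntt at -0.18 were under 2-fold.

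Between the disease labels, 0 of 8 members passed in MDS/MPN against MDS (limma, background 0%), and 1 of 8, Flt3, had an unadjusted p under 0.05, against 4.45% of features. That count was 0 of 8 after quantile normalisation and 0 of 8 without MDS/MPN replicate 1 or replicate 3. Without either MDS array that group has 1 array, so no count is given, and these settings do not show that the Flt3 result outlasts the loss of an MDS array. It was 6 of 8 without MDS/MPN replicate 2, Il7r among them through MDS/MPN readings not well above background, and 0 passed after adjustment. Flt3 was also the 1 member whose arrays did not overlap in the lower direction, as 12% of features did not. The median of the members was -0.87, against -0.02 over all features. It was -1.06 after quantile normalisation and -0.20 with normexp background correction. Beside Flt3, Dntt and Satb1, whose values are given above, Ccr9 read -1.001 ± 0.76 (SE, limma, adjusted p = 0.991). Ly6d read the other way, at 0.95 ± 0.53 (SE, limma, adjusted p = 0.991). Rag2 at 0.14 and Notch1 at 0.06 lay near 0 and read -0.032 and -0.087 after quantile normalisation. Without MDS/MPN replicate 2, Ccr9 read -1.73 and Ly6d 1.31 (limma adjusted p = 0.117 and 0.1503, over the alternatives 0.117 to 0.999995 and 0.1503 to 0.999995). Leaving out each array in turn gave -1.73 to -0.49 for Ccr9 and 0.46 to 1.45 for Ly6d. For Ccr9, MDS/MPN replicate 1 at -1.89 was not well above background. The -1.001 and the -1.73 of Ccr9 thus rest partly on that reading and are not fully measured differences.

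**Figure D3:**
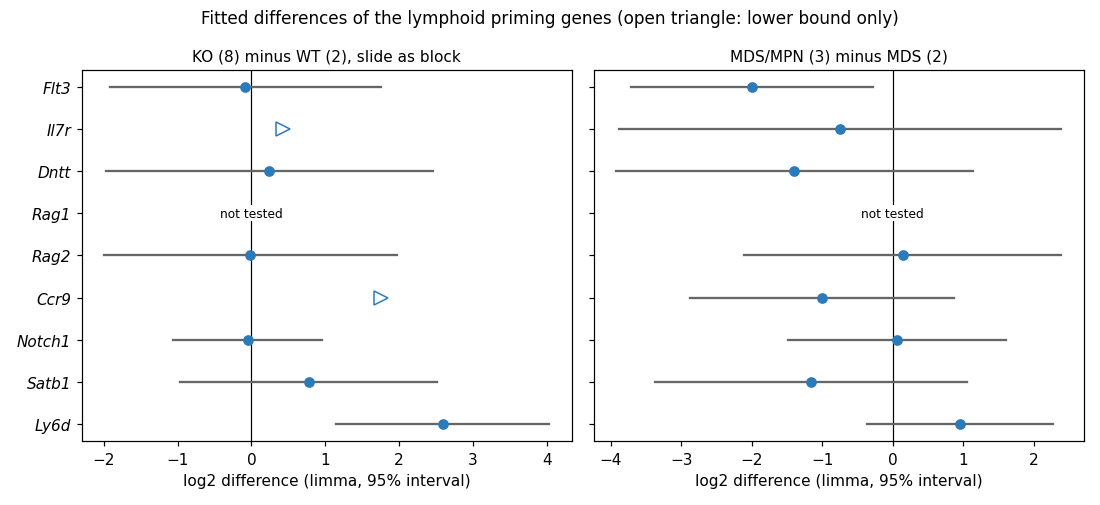
Fitted log2 differences (points) with 95% intervals from limma (bars) for KO minus WT over all 10 arrays (left) and MDS/MPN minus MDS (right); Rag1 was not tested. Open triangles, titled lower bounds, mark Il7r and Ccr9 with the WT arrays raised, as neither WT array was well above background. They include KO readings not well above background and are not strict lower bounds. The interval of Ly6d (1.15 to 4.04) lies above 0 on the left and that of Flt3 (-3.71 to -0.28) lies below 0 on the right, with no member past an adjusted p of 0.05.

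Across arrays, 4 members that were well above background on all 10 could be set against each other by the root mean square of the differences between their log2 profiles, each centred on its mean. Flt3 and Satb1 differed by 0.58, Flt3 and Dntt by 0.72, and Satb1 and Dntt by 0.87. Ly6d differed from Satb1 by 1.72, from Flt3 by 2.05 and from Dntt by 2.42. Among 10681 named genes well above background on at least 8 arrays, those nearest to Flt3 were Mctp2 at 0.31, Kbtbd11 at 0.39 and Snn at 0.39. In nearness to Flt3, Satb1 ranked 60 and Dntt 369, and in nearness to Satb1, Dntt ranked 798. The nearest to Satb1 were Mn1 at 0.32, Camk1d at 0.35 and Tspan2 at 0.51, and those nearest to Dntt were Il17re at 0.51, Epb41l3 at 0.51 and Nsg2 at 0.57. Ly6d had Plcd3 at 0.62, Zmat3 at 0.89 and Tent5a at 0.95. All points of a profile share arrays and scaling, and these distances describe 10 arrays with no test.

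**Figure D4:**
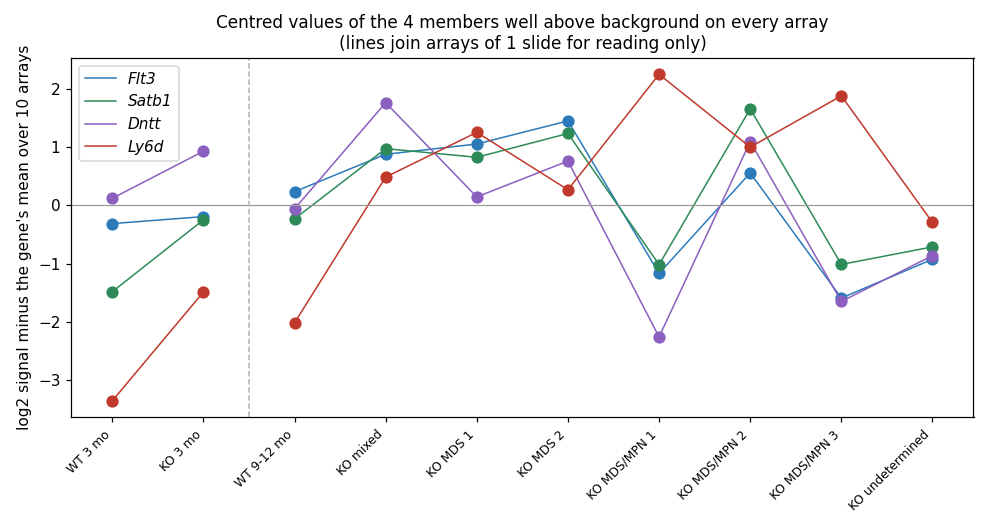
Centred log2 levels (y axis, log2 units from the gene's mean over the 10 arrays) of Flt3, Satb1, Dntt and Ly6d on each array (x axis); lines join arrays of 1 slide for reading only. Flt3, Satb1 and Dntt dip on MDS/MPN replicates 1 and 3 and on the undetermined array, while Ly6d has its highest values on MDS/MPN replicates 1 and 3.

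The summed level of 9 B cell markers, in multiples of the 75th percentile, was 80.4 on MDS/MPN replicate 2, 58.7 on the undetermined array, 20.4 to 27.0 on the WT arrays and 26.8 to 42.0 on the other KO arrays. Of the 9, 8 were well above background on MDS/MPN replicate 2 and 3 on each WT array. Those with their highest values there included Vpreb1 and Igll1, the surrogate light chain, at 4.79 and 2.59, the adaptor Blnk at 4.11 and the transcription factor Ebf1 at 0.24, the 1 array on which Ebf1 was well above background. Others were highest elsewhere. Ms4a1 stood at -2.25 there against 1.71 on MDS/MPN replicate 1, Cd79b at 4.64 against 5.22 on replicate 3, Cd79a at -1.66 against -1.65 on replicate 1, and Pax5 was well above background only on MDS replicate 1, at -0.96. The part of B lineage cells in the Il7r, Rag1, Flt3 and Dntt levels of that array was not tested.

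The summed levels of other cell type markers also varied between arrays, and in the lists below the WT and KO ranges overlapped. The 8 granulocyte and monocyte markers measured, of 9 listed, summed to 329 and 1124 on the WT arrays and to 845 to 4537 on the KO arrays, with all 8 well above background throughout. Among the KO arrays of single mice the lowest sums were 1083 and 1677 on the MDS arrays and 1345 on MDS/MPN replicate 2. The highest were 2916, 4104 and 4537 on MDS/MPN replicates 1 and 3 and the undetermined array, where Flt3, Dntt and Satb1 were lowest among these mice. These sums rest mainly on Mpo and Ctsg, the brightest of the 8 on every array. S100a8, S100a9 and Lcn2 had another order. On MDS/MPN replicates 1, 2 and 3 and the undetermined array S100a8 stood at 2.68, 5.86, 6.49 and 3.76. S100a9 stood at 2.99, 6.45, 7.01 and 4.31, and Lcn2 at 2.59, 3.47, 4.68 and 2.37. The slide 1 arrays did not share the pattern of high sums with low Flt3, Dntt and Satb1. The 3-month KO array summed to 2828, with Dntt at 8.20, Flt3 at 4.85 and Satb1 at 2.54. The 3-month WT array had the lowest sum, 329, and the lowest Satb1, 1.31. The 9 long-term stem cell markers summed to 78.1 to 144 on the WT arrays, 23.1 to 91.4 on the KO arrays, 90.1 and 91.4 with MDS and 37.2 to 42.7 with MDS/MPN. The 7 erythroid markers summed to 92.8 to 150 in WT and 80.3 to 470 in KO. The plasmacytoid dendritic cell list, which shares Ly6d and Dntt with the members, summed to 418 to 518 in WT and 298 to 812 in KO. Of its other genes, Siglech lay between 7.22 and 8.37 on all 10 arrays. The rest ranged more widely, Irf8 from 2.25 to 6.71, Bst2 from 3.63 to 6.12 and Tcf4 from 0.67 to 3.48. The part of these cell types in the members' values was not tested.

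Partner genes of the same pathways were taken from 5 lists, in which 0 genes passed in KO versus WT over all arrays (limma, adjusted p under 0.05). Of 20 lymphoid transcription regulators, 16 were tested, 9 read higher and 7 lower, and 3 had an unadjusted p under 0.05. Those 3 were Tcf7, the T lineage factor downstream of Notch, Gata3 at -1.11 and Tcf3, which encodes E2A, at 0.84. Tcf7 was well above background on 5 of 8 KO and 0 of 2 WT arrays and entered the test through the KO arrays alone (limma adjusted p = 0.795), so no difference is given. Its place among the 9 higher and among the 3 rests on WT readings below background. The median of the list was 0.18 against 0.04 over all features, and -0.05 against -0.04 after quantile normalisation.

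In the Notch pathway 11 of 18 genes were tested, 4 read higher and 7 lower, the median was -0.26, and 0 had an unadjusted p under 0.05. Lfng, a glycosyltransferase that modifies Notch receptors, read 0.77. The Notch targets Hes1 and Hey1 were well above background on 1 KO and 1 WT array each, too few for a difference to be read. Both entered the test through that WT array alone, yet they are counted among the 7 lower and in the median. Of 15 genes of Flt3 and interleukin 7 signalling, 14 were tested, 7 in each direction (3 higher and 11 lower after quantile normalisation), with a median of 0.02 and 0 at an unadjusted p under 0.05. Their smallest p-values belonged to Il7, which was well above background on 1 WT array and no KO array, the feedback inhibitor Socs1 at 0.88 and the kinase Jak1 at -0.54. Through that WT array alone, Il7 is counted among the 7 lower.

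Of 12 partners of V(D)J recombination, 11 were tested, 8 read higher and 3 lower (6 and 5 after quantile normalisation). The median was 0.05, with 0 at an unadjusted p under 0.05. Xrcc4 and Xrcc5, of the end-joining machinery, read -0.65 and -0.60, and Hmgb2, a DNA-bending cofactor of the recombinase, 0.43. Of 13 homing and surface genes of lymphoid progenitors, all 13 were tested, 10 read higher and 3 lower (7 and 6 after quantile normalisation), the median was 0.36, and 1 had an unadjusted p under 0.05. This was Itgb7, the integrin beta chain used in homing to gut, at 1.32 ± 0.52 (SE, limma, adjusted p = 0.792), followed by Ccr7 at 0.85 and the selectin ligand Selplg at 0.51. In MDS/MPN against MDS, 13 of 16 lymphoid regulators tested and 9 of 13 homing and surface genes read lower, with medians of -0.41 and -0.33. Of the Notch pathway 7 of 9 and of Flt3 and interleukin 7 signalling 8 of 13 read lower, with medians of -0.40 and -0.25. V(D)J partners went the other way, with 7 of 12 higher and a median of 0.155. Over all features the median was -0.02. In these lists 0 genes were called (limma). At an unadjusted p under 0.05 there was 1 homing and surface gene, 1 V(D)J partner and 0 in the other lists.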

How the data were processed

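RNA from CD45.2-sorted LSK cells (0.02 µg per array, Cy3) was hybridised to 10 one-colour Agilent arrays. Per the file headers, the deposited intensity per spot is the processed signal of Feature Extraction 10.7.1.1, background-subtracted and detrended; the submitters' processing notes name version 9.1. The deposited value table holds, as a ratio, the same intensity over the array's 75th percentile, which was found by matching its columns to the scanner files (SD of log2 differences at most 0.00784, the next best array at least 0.665). In this match 4 of 10 columns carried another time label. The scale is thus known from the match and not stated.

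Probes were named through RefSeq accessions and the RefSeq table of GRCm38.p6: of 29123 probes with an accession, 27656 matched 1 symbol, and 28025 probes stayed unnamed. Spots of 1 probe were averaged, control and outlier spots were left out, log2 of the array's 75th percentile was subtracted, and each gene was represented by its brightest probe. A feature was tested when well above background on at least 50% of the arrays of 1 group. Tests used limma 3.58.1 in R 4.3.3 over all such features with Benjamini-Hochberg adjustment at 0.05, checked on simulated data. Tables and figures were made in Python 3.11.15 (pandas 2.3.3, numpy 2.4.6, matplotlib 3.10.9). A fold "at least", or one with WT arrays raised, sets the brighter group's mean against the dimmer group's mean after lifting. Lifting takes dim values to the dimmest signal that the array's own call still placed well above background. The brighter mean keeps readings not well above background, so the fold is a lower bound only where every bright array was measured. Pairs of arrays have values only, with a count past 2-fold. Members, lists and tests were chosen with earlier results of these data known. All members were named; of each partner list, up to 3 genes of smallest unadjusted p. Marker lists for LSK, stem, B, plasmacytoid dendritic, granulocyte and monocyte, and erythroid cells are described in the results. The T cell list summed to 29.8 to 32.7 in WT and 25.6 to 80.9 in KO, the NK list to 67.0 to 119 and 41.6 to 185, and the mast cell list to 3.55 to 11.4 and 9.85 to 84.8. Alternatives were other scaling, background, filter, probe and time-label choices, the slide block, the mixed array and leaving out each array. The number of arrays limits the precision.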

Additional observations from a re-analysis of the deposited data

How the results depend on the processing

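No member passed an adjusted p of 0.05 (limma) in any comparison under any alternative run: 0 members were called throughout. Ly6d kept its sign in every tested comparison, from 1.66 to 3.37 for KO versus WT over all arrays, and Flt3 did so in MDS/MPN versus MDS, from -2.64 to -1.56. Of the values recomputed, 467 were labelled the same, 36 moved and 43 changed in sign. The cause of each change was not tested except where fewer arrays or features entered. The 467 include counts, which have no direction. In pairs of arrays a sign change was labelled only where the main difference was at least 2-fold. Smaller ones, as for Flt3 in the WT pair (-0.55 to 0.55), are among the 467. For KO versus WT over all arrays, members near 0 changed sign: Dntt read -0.029 with quantile normalisation, -0.0086 with normexp and -0.041 without the slide block, Rag2 0.0023, 0.042 and 0.32 in the same order and 0.015 with probes averaged, Notch1 0.066 with normexp and 0.049 with probes averaged, and Flt3 0.047 without the block. Leaving out 1 array each, Flt3 ran from -0.23 to 0.12, Dntt from -0.085 to 0.81, Rag2 from -0.13 to 0.14 (-0.22 without the mixed array) and Notch1 from -0.22 to 0.23.

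The count of features called over all arrays was 3, against 0 with normexp, with every array required above background, with no filter, with a trended robust prior and without the mixed array. Leaving out 1 array each gave 0 to 177, with 177 without the 3-month WT array, 154 without the 3-month KO array and 12 without the 9-12-month WT array. For the single mice at 9-12 months the count was 115, against 247 with quantile normalisation, 182 with the mixed array added, 50 with no filter, 0 with every array required above background and 0 with the trended prior, and 0 to 215 leaving out 1 array each (215 without MDS/MPN replicate 2). There Notch1 read 0.030 with normexp and -0.37 to 0.028 leaving out arrays, and with the time labels of the value table Flt3 read 0.21, Rag2 0.60, Satb1 1.65, Notch1 -1.73 and Ly6d 4.43, and 4 of 8 members, in place of 1, had an unadjusted p under 0.05.

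In MDS/MPN versus MDS, quantile normalisation gave -0.032 for Rag2 and -0.087 for Notch1. Leaving out 1 array each gave -0.66 to 0.55 for Rag2, -0.38 to 0.60 for Notch1 and -2.06 to 0.015 for Il7r. The -2.06 of Il7r, without MDS/MPN replicate 2, rests on MDS/MPN readings not well above background. In the difference between times, Ccr9 read 0.42 with quantile normalisation, 0.39 with normexp and 0.12 with the labels of the value table, which also gave Satb1 0.44. The features called there were 191 with quantile normalisation and 2 with those labels, against 0. With those labels the 3-month pair had 1736 features and 6 members at least 2-fold apart and the mixed pair 5612 and 3, and the WT pair turned sign, with Rag2 at -1.01, Notch1 at 1.54, Satb1 at -1.25 and Ly6d at -1.34. Averaging probes gave 0.32 for Notch1 in the WT pair. No paired analysis was possible because the labels number no replicates.

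With 2 WT arrays on different slides, differences under about the spread between KO arrays could not be told from it. Il7r, Rag1, Rag2, Ccr9 and Notch1 were not well above background on 3 to 9 arrays, so their differences rest partly on signal near background, and their order there has no meaning. A value that misses the threshold here does not show that KO and WT were alike.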
